A study of Mus musculus with 24 samples.

Results

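The loss of Mdr2 was followed in livers that carried tumours, by comparing 6 tumour-bearing Mdr2-/- libraries with 6 tumour-bearing wild-type libraries, taken by their treatment labels from a series of 24 bulk RNA sequencing libraries of mouse liver. In both groups AKT and YAP1 had been integrated by a transposon, which gives cholangiocarcinoma, a cancer of bile duct type. The 6 Mdr2-/- and 6 wild-type livers without tumour had received an empty transduction and serve here only to show the genotype difference outside tumour-bearing livers. The sources used here give no strain, age or sex, nor the promoter of the delivered genes or the time after transduction. The labels speak of tumour-bearing liver tissue, so each library holds RNA of tumour and of the liver around it. Separate animals are not stated for them, and the p-values therefore measure the spread between these samples.

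Mdr2, encoded by Abcb4, moves phosphatidylcholine from the hepatocyte into bile, where it forms mixed micelles with bile salts. Bile without phospholipid injures the epithelium of the ducts, and Mdr2-/- mice develop sclerosing cholangitis with duct proliferation, portal fibrosis and inflammation. AKT and YAP1 together are a standard way to turn mouse liver cells into cholangiocarcinoma, AKT being a growth and survival kinase and YAP1 a transcriptional activator of the Hippo pathway.

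The 12 libraries held 23016702 to 30288385 counts each. Levels are given as CPM, counts per 1000000 after TMM scaling, and 1 CPM stood for 22.7 to 34.2 counts. Differences are log2 fold changes, Mdr2-/- over wild type (± SE), from an edgeR quasi-likelihood model of 17216 genes in all 24 libraries, and a gene was taken as changed at a Benjamini-Hochberg adjusted p under 0.05. The hepatocyte product Alb was at 17356 to 65649 CPM in all 12 libraries, and bile duct markers were present in every one. Adipoq and Plin1, markers of fat cells, did not exceed 0.295 CPM. Xist was at 533 to 2802 CPM in all 24 libraries and none of 4 Y-linked genes exceeded 0.809 CPM. Some libraries stood apart from their group in a principal component analysis. Mdr2-/- replicate 1 and wild-type replicate 3 lay nearer to the other tumour-bearing genotype. Wild-type replicate 6 lay among the Mdr2-/- livers without tumour, and far from the wild-type livers without tumour. Of the sample titles, 3 of the 6 Mdr2-/- ones and none of the wild-type ones carry a number below 2000, and the labels do not say what the number stands for.

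Abcb4 (ENSMUSG00000042476), the targeted gene, was measured at 165 to 361 CPM in the 6 tumour-bearing wild-type libraries (median 215) and at 21.7 to 59.3 CPM in the 6 Mdr2-/- libraries (median 25.9). The groups did not overlap, and the difference was -2.91 ± 0.23 (edgeR adjusted p = 1.46e-08). Counts of the gene did not reach 0 in any Mdr2-/- library. The delivered oncogenes were read through the mouse genes they resemble. Akt1 was measured at 58.5 to 162 CPM in wild-type and at 44.9 to 134 CPM in Mdr2-/- livers, a difference of 0.06 ± 0.25 (edgeR adjusted p = 0.914). Yap1 lay at 40.2 to 77.5 CPM and at 40.7 to 58.6 CPM, a difference of -0.03 ± 0.15 (adjusted p = 0.944). Neither differed beyond the spread between libraries, and both differences change sign under other settings. Whether the counts include reads from the delivered genes cannot be told from the table.

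Abcb1b (ENSMUSG00000028970) encodes a multidrug P-glycoprotein of the same transporter family, and it had the highest fold among the 171 named genes that rose, had a mean of 5 CPM or more in Mdr2-/- and separated the 12 libraries. Its level was 1.17 to 2.45 CPM in wild type (median 1.42) and 17.1 to 45.5 CPM in Mdr2-/- (median 34.6). Every Mdr2-/- library lay above every wild-type library, with a difference of 4.33 ± 0.29 (edgeR adjusted p = 7.15e-10). In livers without tumour the same gene differed by 4.27 ± 0.29 (edgeR adjusted p = 8.80e-11). Abcb1b is the gene directly before Abcb4 in the RefSeq order of GRCm38.p6, an older assembly than that of the counts. The next gene on the same side, Abcb1a, which encodes the other P-glycoprotein, did not pass the test at -0.44 ± 0.27 (edgeR adjusted p = 0.323). Crot, a carnitine acyltransferase gene and which lies beyond the predicted gene Gm17936 on the other side, did not pass either at -0.30 ± 0.24 (adjusted p = 0.476). The 150 bases before the start of Abcb1b are shown because no other gene of this comparison reached its fold among those separated genes. They are given from RefSeq, GRCm38.p6, chr5:8797997-8798146, plus strand, and the capitals mark GATTGG and its reverse complement CCAATC, the core of a CCAAT box:
Abcb1b: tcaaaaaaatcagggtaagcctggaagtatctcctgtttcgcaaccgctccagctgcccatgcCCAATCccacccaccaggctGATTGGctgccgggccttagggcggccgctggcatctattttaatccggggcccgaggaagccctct

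The remaining transporters of the canalicular membrane, through which hepatocytes secrete into bile, changed in few further cases. Of 12 tested members, Abcb1b rose and 3 fell (5 fell without wild-type replicate 3), where 7.13% of all genes tested rose and 4.0% fell. The 12 and the 3 include Abcb4 itself, whose fall follows from the targeting, so the count that fell is no independent result. Abcg8, which with its partner exports cholesterol, fell from 28.4 to 68.1 CPM to 16.8 to 33.6 CPM, by -0.94 ± 0.23 (edgeR adjusted p = 0.00873). The call of Abcg8 was lost on log2(TPM + 1) and log2(TPM + 0.1). Slc47a1, an exporter of organic cations, fell by -0.58 ± 0.15 (edgeR adjusted p = 0.0123), a call lost with total library size (-0.33) and on log2(TPM + 1) (-0.30). On the side facing the blood, 3 of 12 tested transporters fell, among them Abcc3, an exporter of conjugated bile acids, by -0.85 ± 0.22 (edgeR adjusted p = 0.0140). The call of Abcc3 was lost on log2(TPM + 1) and log2(TPM + 0.1) and in the fit of the 12 libraries alone. That count of 3 was 1 without Mdr2-/- replicate 4 or 6, without wild-type replicate 1, 2 or 4 and with total library size, and 5 without Mdr2-/- replicate 1 or wild-type replicate 3. Of the 19 enzymes of bile acid synthesis 2 fell, a count that was 0 with total library size and 0 or 1 without any 1 of Mdr2-/- replicates 2 to 6 or wild-type replicates 1, 2, 4 and 6.

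**Figure D1:**
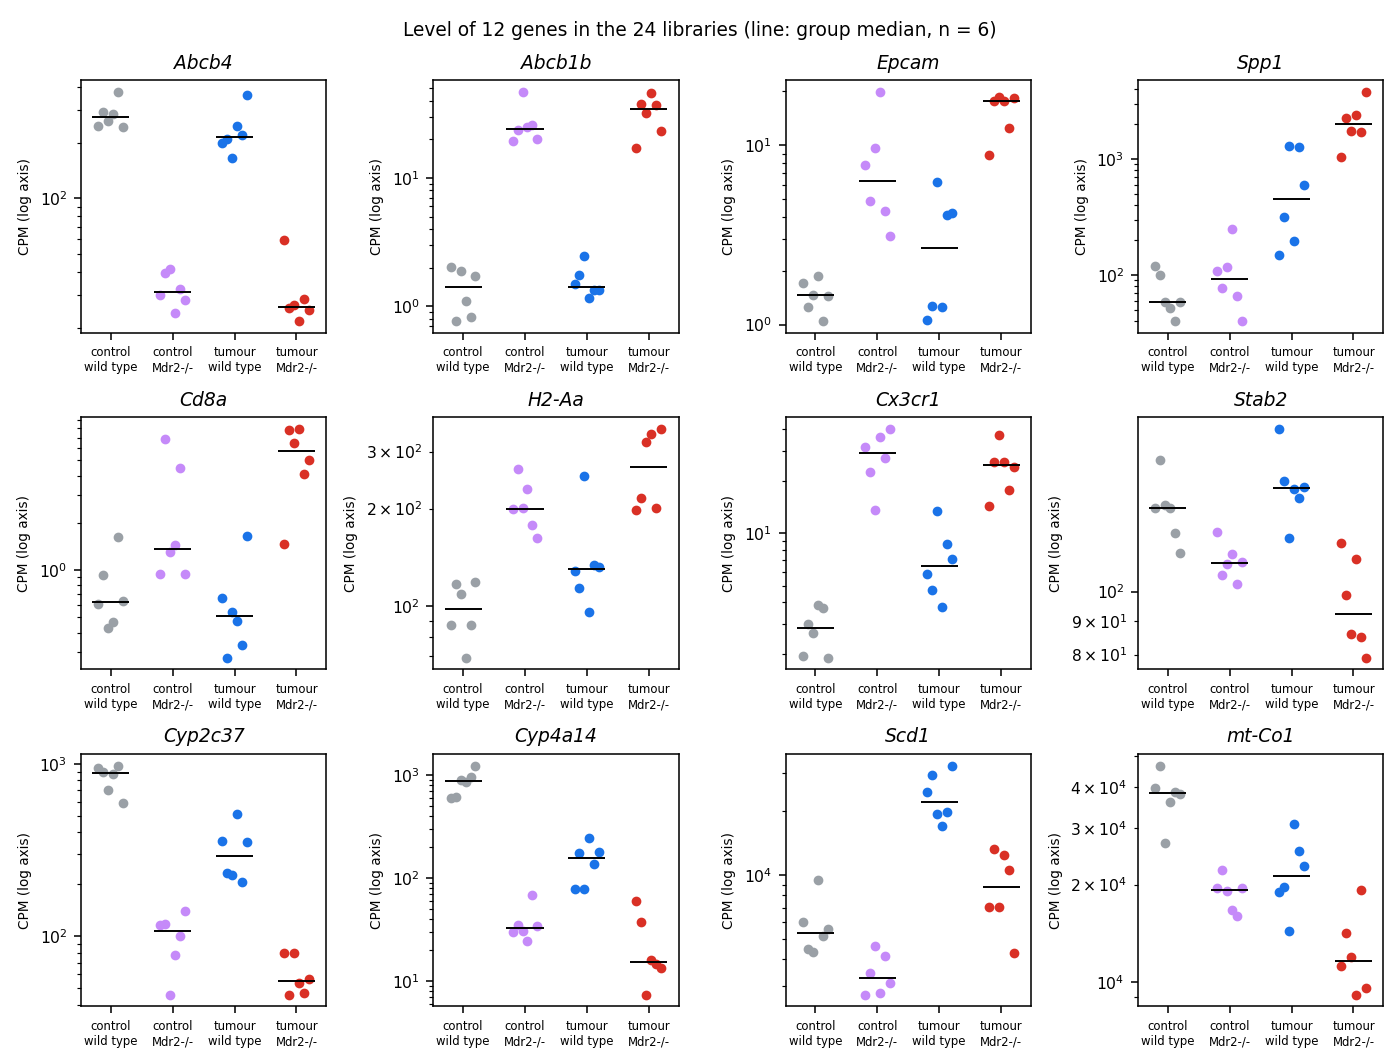
Level in CPM on log axes of 12 genes in the 24 libraries, by group, with 1 point per library and a line at the group median (n = 6). Abcb4 and Abcb1b separate the genotypes with and without tumour, Epcam reaches 8.88 CPM or more in every tumour-bearing Mdr2-/- library against at most 6.22 CPM in tumour-bearing wild type, and Stab2, Cyp2c37, Cyp4a14 and Scd1 are lower in each tumour-bearing Mdr2-/- library than in any tumour-bearing wild-type one.

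In all, 1917 of the 17216 genes tested (11.1%) changed between the tumour-bearing genotypes. Of these, 1228 were higher (7.13%) and 689 lower (4.0%) in Mdr2-/- livers, and the change was at least 2-fold for 672 higher (3.9%) and 218 lower genes (1.27%). Among all 17216 genes tested, called or not, 396 (2.3%) were higher in every Mdr2-/- library than in any wild-type one. In the same way 239 (1.39%) were lower. These directions are relative to TMM scaling. With total library size the median of all genes shifted by 0.246 and the share of higher genes among those changed went from 64.1 to 91.2%. The number of changed genes also depended on single libraries, being 1116 without Mdr2-/- replicate 6, 1232 without wild-type replicate 2 and 1184 without wild-type replicate 4. Of the 108 changed genes described here, 92 kept the call when the tumour-bearing libraries were restricted to title numbers of at least 2000, which keeps 3 Mdr2-/- and 6 wild-type libraries. With numbers below 2500 in addition, which leaves 3 and 4 libraries, 85 kept it. The call was lost in both fits for Abcg8, Ppp1r3g, Aqp1, Krt19, Igf2, Afp, Postn, Pdgfrb, Ighd, Cidec, Plin4, mt-Co1, Top2a, Mcm10 and Ang5. It was lost in the first alone for Wnt2, and in the second alone for Abcc3, Mup21, Nkg7, H2-Ab1, Ms4a7, Timd4, Ccr2 and Cidea. No gene lost to these fits changed sign.

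The largest rises after Abcb1b, among genes at 5 CPM or more that separated the libraries, included several epithelial and stromal genes. Wfdc18, a secreted WAP-domain protein, went from 0.528 to 9.26 CPM in wild type to 16.9 to 65.8 CPM in Mdr2-/- (3.09 ± 0.66, edgeR adjusted p = 0.00366). Scara5, a ferritin receptor of fibroblasts, went from at most 1.67 CPM to 3.75 to 7.80 CPM (2.89 ± 0.39, edgeR adjusted p = 4.11e-05). Itgbl1, an integrin-like secreted protein, went from at most 2.11 CPM to 6.34 to 11.2 CPM (2.69 ± 0.23, edgeR adjusted p = 6.00e-08). Neither genotype's range reached the other's in any of the 3. Tmem45a (2.83), Lrrn1 (2.80), Cib3 (2.75), Fxyd3 (2.66), Pof1b (2.56), Spns3 (2.52), Ugt8a (2.52) and Tesc (2.51) completed the leading 12. Among them Fxyd3 encodes a regulator of the sodium pump in epithelia and Ugt8a the enzyme that adds galactose to ceramide.

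The largest falls, by the same rule, were led by hepatocyte enzymes. Sult2a5, of the family of bile acid and steroid sulfotransferases, went from 8.73 to 66.9 CPM in wild type to 0.738 to 6.55 CPM in Mdr2-/- (-3.56 ± 0.67, edgeR adjusted p = 0.00132). Cyp2c37 went from 207 to 514 CPM to 45.5 to 80.2 CPM (-2.38 ± 0.25, edgeR adjusted p = 1.63e-06). Colec10, a secreted collectin, went from 48.6 to 84.7 CPM to 5.39 to 28.3 CPM (-2.43 ± 0.38, edgeR adjusted p = 0.000152). Beside Abcb4, the other members were Cyp2b13 (-2.99), Cyp4a14 (-2.59), Cyp2b10 (-2.21), Ppp1r3g (-2.16), Lrtm1 (-2.0), Esrrg (-1.94), Cnmd (-1.89) and Mup21 (-1.82). Ppp1r3g, a glycogen-targeting subunit of protein phosphatase 1, was at -2.16 (adjusted p = 0.05003) without Mdr2-/- replicate 6 and at -1.93 (adjusted p = 0.0608) without wild-type replicate 4, by edgeR. Reads of the Cyp2c, Cyp2b, Cyp4a, Mup and Sult2a families can be split between near-identical copies, so single members are uncertain. The library kit is not stated to mark strand, so a gene cannot be told apart from an antisense partner.

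Markers of bile duct epithelium were higher in tumour-bearing Mdr2-/- livers. Of 27 tested members of this list, 15 rose and 1 fell, with a median of 1.09 against -0.02 for all genes. In bulk tissue, more cells of a type and more RNA per cell cannot be told apart. Epcam, an adhesion molecule of duct epithelium, was at 1.06 to 6.22 CPM in wild type (median 2.68) and at 8.88 to 18.7 CPM in Mdr2-/- (median 17.7), a rise of 2.37 ± 0.41 (edgeR adjusted p = 0.000587). Cldn7, a tight junction protein, was at 0.352 to 2.48 CPM and 4.56 to 8.99 CPM (2.22 ± 0.37, edgeR adjusted p = 0.000339). Both genes separated the 12 libraries. The duct keratin Krt7 was at 1.17 to 10.1 CPM in wild type and 7.80 to 29.5 CPM in Mdr2-/-, overlapping through wild-type libraries with high values (2.03 ± 0.49, edgeR adjusted p = 0.00796). Sox9, the transcription factor of ductal and progenitor cells, was at 6.29 to 22.6 CPM and 17.8 to 49.5 CPM (1.39 ± 0.33, edgeR adjusted p = 0.00788). Aqp1, a water channel of ducts that endothelium also carries, was the member that fell (-0.43 ± 0.11, edgeR adjusted p = 0.0148), a call lost with total library size (-0.19) and on log2(TPM + 1) (-0.17).

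Spp1 and Krt19, the most used duct and cholangiocarcinoma markers, changed less firmly. Spp1, osteopontin, was at 148 to 1308 CPM in wild type (median 457) and 1050 to 3826 CPM in Mdr2-/- (median 2018), a rise of 1.76 ± 0.48 (edgeR adjusted p = 0.0182). It was at 1.53, 1.62 and 1.57 and no longer passed without Mdr2-/- replicate 6, wild-type replicate 2 or wild-type replicate 4. Krt19 was at 0.859 to 10.3 CPM and 5.56 to 24.9 CPM, a rise of 1.74 ± 0.52 (edgeR adjusted p = 0.0293). It lost the call in 6 of the 12 fits that leave out a library, at 1.52 to 1.69: those without Mdr2-/- replicates 2, 3 or 6 and without wild-type replicates 1, 2 or 4. The count of duct markers that rose was 8, not 15, without Mdr2-/- replicate 6, wild-type replicate 2 or wild-type replicate 4.

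The wild-type group was itself uneven in these markers. On a scale where 0 is the mean of the 24 libraries, the mean log2 level of the duct list was -0.83, -0.51 and -0.74 in wild-type replicates 1, 2 and 4 and 0.84, 0.55 and 0.80 in replicates 3, 5 and 6. In Mdr2-/- libraries it was 0.56 in replicate 1 and 1.12 to 1.67 in the other 5. Mdr2-/- replicate 1 thus lay within the range of wild type. With this mean added to the model as a covariate, 113 genes changed instead of 1917, 98 of them among the 1917. The folds of the 1917 had a median of 0.574 times their size without the covariate and their SEs 1.32 times, and 1825 kept their sign. Duct level and genotype move together in these 12 libraries, and the covariate was made from genes of the comparison, so this fit cannot tell the 2 apart. The genes that still passed with it included Abcb4 (-2.73), Abcb1b (3.98), Cib3 (3.06), Itgbl1 (2.37), Cyp2c37 (-1.94), Cyp4a14 (-1.83), Scara5 (1.67) and Pdgfra (1.15).

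**Figure D2:**
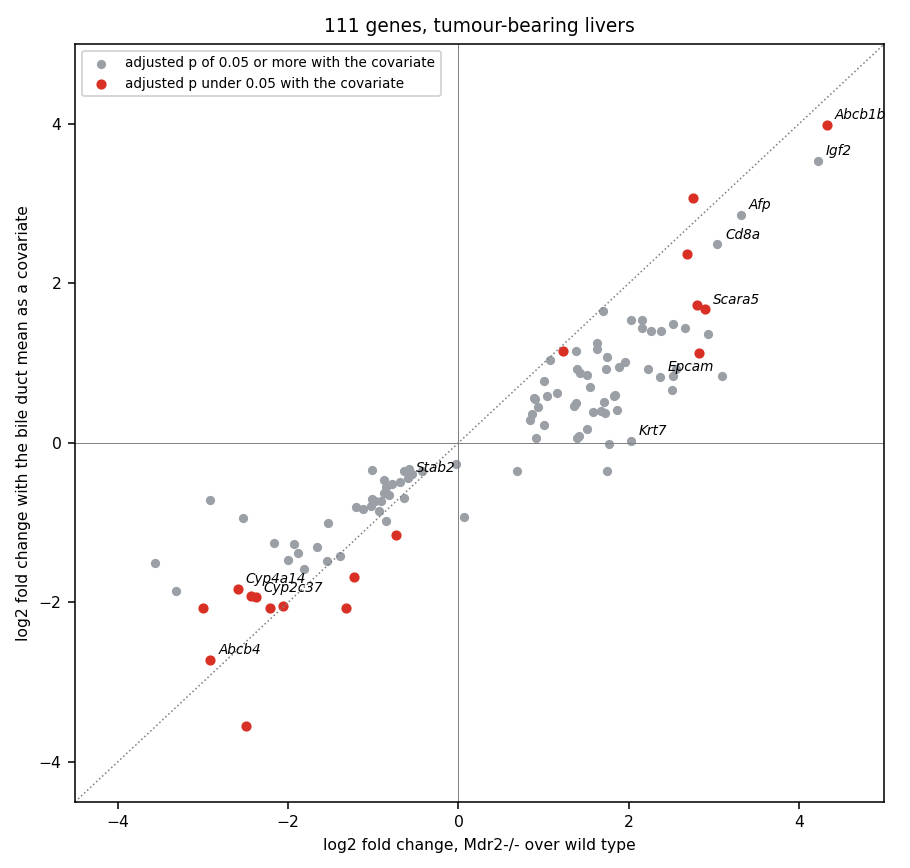
Log2 fold change of the 111 genes of the text in tumour-bearing livers, without (horizontal axis) and with (vertical axis) the bile duct mean as a covariate; the dotted line marks equal values. The genes in red keep an adjusted p under 0.05 with the covariate; Abcb4 and Abcb1b stay near the line, at -2.73 and 3.98, while Krt7 goes from 2.03 to 0.03.

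Genes named for their use in kidney tubules were among those that rose. Of 14 such genes 7 were expressed enough to be tested, and 5 rose, where 7.13% of all genes tested rose. The filter keeps a gene that is expressed in a single group. A member high in tumour-bearing Mdr2-/- livers alone could thus enter through that group, and the count is no independent support. The adhesion molecule Cdh16 was at 0.0880 to 3.04 CPM in wild type and 1.97 to 22.6 CPM in Mdr2-/- (2.93 ± 0.56, edgeR adjusted p = 0.00134). Lrp2, the endocytic receptor megalin, rose by 1.86 ± 0.46 (edgeR adjusted p = 0.00973), and the phosphate carrier Slc34a2 rose by 1.71 ± 0.39 (edgeR adjusted p = 0.00523) with no overlap. In livers without tumour Cdh16, Lrp2 and Slc34a2 differed by -1.38, -1.35 and -0.79, none of which passed. The difference between the 2 genotype effects did pass, at 4.31 ± 1.14, 3.21 ± 0.78 and 2.50 ± 0.56 (edgeR adjusted p = 0.00926, 0.00530 and 0.00300).

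The counts of the next 3 lists stand beside 7.13% of all genes tested that rose and 4.0% that fell. Of 19 tested genes of the EGFR, FGF and MET systems 4 rose, among them the receptor tyrosine kinases Erbb2 (1.38 ± 0.24, edgeR adjusted p = 0.000505) and Fgfr1 (1.01 ± 0.20, edgeR adjusted p = 0.00195). Of 16 Notch genes 3 rose, led by the ligand Jag2 (1.41 ± 0.36, edgeR adjusted p = 0.0109). The Notch count was 1 without Mdr2-/- replicate 6 or wild-type replicate 1, 2, 4 or 5, 5 without Mdr2-/- replicate 1 or wild-type replicate 6, 6 without wild-type replicate 3 and 7 with total library size. Among 21 targets of YAP1, 4 rose and 1 fell. Fjx1 rose by 1.51 ± 0.37 (edgeR adjusted p = 0.00934) and Myof, a membrane repair protein, by 1.35 ± 0.24 (adjusted p = 0.000634). The number of YAP1 targets that rose was 2 without Mdr2-/- replicate 2, 3 or 6 or wild-type replicate 1, 2 or 4, and 8 without wild-type replicate 3. The Notch count of 1, the YAP1 target count of 2 and the 1 target that fell are near the shares of all genes.

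Of 11 tested genes of fetal liver and tumours 3 rose, Scd2, Afp and Igf2 (1 without Mdr2-/- replicate 3), and the latter pair stood out in a single library. Afp, the fetal albumin, was at 8.92 to 12.3 CPM in wild type and at 564 CPM in Mdr2-/- replicate 3, with 8.25 to 18.2 CPM in the other 5. Igf2, the fetal growth factor, was at 202 CPM in the same library and at 1.73 to 4.53 CPM in the others, against 1.10 to 3.04 CPM in wild type. The fitted differences of 3.32 ± 0.85 for Afp and 4.22 ± 1.08 for Igf2 (edgeR adjusted p = 0.0136 and 0.0142) became 0.26 and 0.42 without that library (adjusted p = 0.388 and 0.600).

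Genes of the extracellular matrix were higher in tumour-bearing Mdr2-/- livers. Of 40 tested, 19 rose and 1 fell, with a median of 0.79. Mmp2, a gelatinase of fibroblasts, was at 4.22 to 8.02 CPM in wild type (median 5.77) and 13.1 to 27.0 CPM in Mdr2-/- (median 15.3), a rise of 1.63 ± 0.24 (edgeR adjusted p = 9.05e-05) with no overlap. Mmp7, matrilysin of injured duct epithelium, rose by 2.25 ± 0.60 (edgeR adjusted p = 0.0151), but did not pass without Mdr2-/- replicate 1 and wild-type replicate 6 together (1.98, adjusted p = 0.0544) or without the filter on low counts (2.21, adjusted p = 0.0594). Elastic fibre genes rose together with them, Eln (elastin) by 1.58 ± 0.35 and its crosslinking enzyme Loxl1 by 1.74 ± 0.34 (edgeR adjusted p = 0.00419 and 0.00142). Col1a1, the main fibrillar collagen, was at 20.7 to 108 CPM and 50.8 to 121 CPM and did not pass the test at 0.69 ± 0.35 (edgeR adjusted p = 0.222). It did pass as higher on log2(TPM + 1) and log2(TPM + 0.1), with voom and without wild-type replicate 3. Postn, periostin, fell by -0.74 ± 0.22 (edgeR adjusted p = 0.0290), a call lost in 6 of 12 fits without a library (Mdr2-/- replicates 2, 3, 5 or 6, wild-type replicates 3 or 5; -0.59 to -0.72). The count of 19 was 12 without wild-type replicate 1, 2 or 4 and 29 without wild-type replicate 3.

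Of 20 tested markers of stellate cells and portal fibroblasts, the cells that lay down this matrix, 10 rose. In this list 16 lay above wild type and 4 below, and 7.13% of all genes tested rose. Not every stellate cell or fibroblast marker was higher. Lrat had a median of 72.6 CPM in wild type and 48.3 CPM in Mdr2-/-, and Des of 11.8 and 10.6 CPM. Dcn had medians of 250 and 239 CPM. Pdgfra, a receptor of fibroblasts, was at 14.4 to 16.3 CPM in wild type (median 15.6) and 30.6 to 47.7 CPM in Mdr2-/- (median 33.8), a rise of 1.22 ± 0.13 (edgeR adjusted p = 1.71e-06). The wild-type values of Pdgfra lay close together and the groups did not overlap. Thy1, a marker of portal fibroblasts, was at 4.21 to 5.74 CPM and 7.11 to 13.0 CPM (1.08 ± 0.18, edgeR adjusted p = 0.000338). Fbln1 rose by 1.89 ± 0.31 and Pdgfrb by 0.90 ± 0.22 (edgeR adjusted p = 0.000293 and 0.00876). In the TGF-beta list 8 of 19 rose. They included the ligand Tgfb3 (1.72 ± 0.34, edgeR adjusted p = 0.00157), its binding protein Ltbp2 (1.68 ± 0.38, adjusted p = 0.00541) and the integrin chains Itgb8 (1.96 ± 0.31, adjusted p = 0.000182) and Itgb6 (1.83 ± 0.40, adjusted p = 0.00387), which release TGF-beta from its latent form. Itgb8 and Itgb6 separated the 12 libraries, and Itgb8 stood at 4.84 to 18.1 CPM against 28.4 to 61.2 CPM.

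**Figure D3:**
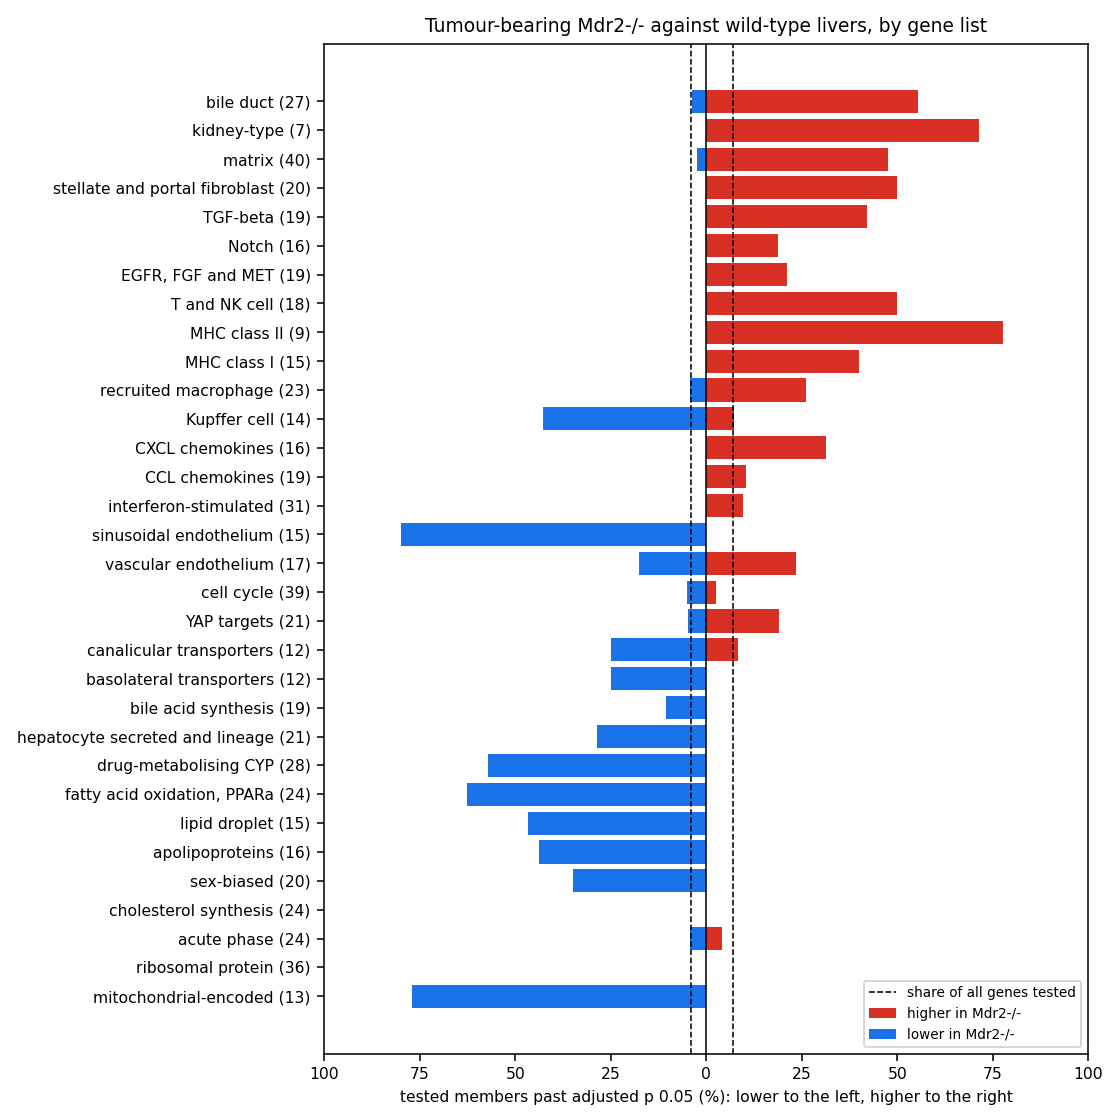
Percent of the tested members of 32 gene lists (their number in brackets) past an edgeR adjusted p of 0.05 in tumour-bearing livers, higher in Mdr2-/- to the right and lower to the left. The dashed lines are the shares among all genes tested, 7.13% higher and 4.0% lower; 7 of 9 MHC class II genes rose and 12 of 15 sinusoidal endothelial genes fell.

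T cell genes were higher, among them both CD8 chains of cytotoxic T cells. Of 18 tested genes of T and NK cells 9 rose, with a median of 0.95, and 5 rose without Mdr2-/- replicate 4. Cd8a, the defining chain of cytotoxic T cells, was at 0.275 to 1.66 CPM in wild type (median 0.510) and 1.47 to 7.97 CPM in Mdr2-/- (median 5.76), a rise of 3.04 ± 0.53 (edgeR adjusted p = 0.000592). Only Mdr2-/- replicate 1, at 1.47 CPM, lay below the highest wild-type library for Cd8a. Its partner Cd8b1 rose by 2.16 ± 0.49 and the receptor subunit Cd3g by 1.69 ± 0.27, without overlap (edgeR adjusted p = 0.00523 and 0.000223). Nkg7, of cytotoxic granules, rose by 1.37 ± 0.36 (edgeR adjusted p = 0.0143). Itgae, the integrin chain CD103 of T cells and dendritic cells lodged in epithelium, was at 0.653 to 2.11 CPM and 2.43 to 8.38 CPM (2.16 ± 0.32, edgeR adjusted p = 8.80e-05). These are low levels, at which 1 CPM rests on 22.7 to 34.2 counts. Among 17 genes of B and plasma cells 1 rose and 1 fell, counts near the 7.13% and 4.0% of all genes tested. Igha, the heavy chain of IgA, rose by 2.03 ± 0.39 and Ighd, that of IgD, fell by -0.86 ± 0.23 (edgeR adjusted p = 0.00149 and 0.0147). The call of Ighd was lost with total library size (-0.59), on log2(TPM + 1) (-0.42) and with title numbers below 2000 as a covariate (-0.75).

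Antigen presentation genes of MHC class II rose in 7 of 9 members, with a median of 0.82. H2-Aa, the alpha chain, was at 95.5 to 252 CPM in wild type (median 130) and 197 to 353 CPM in Mdr2-/- (median 268), a rise of 0.93 ± 0.21 (edgeR adjusted p = 0.00469). Wild-type replicate 3 was the one wild-type library within the Mdr2-/- range of H2-Aa. H2-DMb1, which helps to load peptides, rose by 1.04 ± 0.21 and H2-Ab1, the beta chain, by 0.84 ± 0.22 (edgeR adjusted p = 0.00241 and 0.0127). Cd74, the invariant chain, rose by 0.91 ± 0.24 (edgeR adjusted p = 0.0157) and was at 0.82 (adjusted p = 0.0503) without wild-type replicate 4. Promoters of this family carry a CCAAT element called the Y box. It is marked in capitals (GATTGG) in 2 of them, shown because these genes moved together, as the 150 bases before the start in RefSeq, GRCm38.p6 (H2-Aa, chr17:34287824-34287973, minus strand; H2-DMb1, chr17:34153041-34153190, plus strand):
H2-Aa: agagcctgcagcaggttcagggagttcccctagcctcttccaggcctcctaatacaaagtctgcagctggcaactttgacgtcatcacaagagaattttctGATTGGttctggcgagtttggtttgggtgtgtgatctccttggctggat
H2-DMb1: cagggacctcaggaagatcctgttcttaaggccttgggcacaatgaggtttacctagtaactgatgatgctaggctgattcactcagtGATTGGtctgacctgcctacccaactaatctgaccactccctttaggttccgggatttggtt

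GATTGG or CCAATC, searched on both strands with no other motif, was present in 5 of the 6 class II genes with an entry in the promoter table, the 3 others having none there. The same window held it in 10.9% of all 32851 promoters listed, and of the 15296 promoters of tested genes 13.8%. It was in 10.2% of the promoters of genes that rose. The marked bases begin 49 bases before the start in H2-Aa and 62 in H2-DMb1. A match describes the letters and says nothing of what binds there. Of 15 genes of MHC class I presentation 6 rose, among them H2-Q7 (1.0 ± 0.23, edgeR adjusted p = 0.00536), a class I gene with near-identical relatives, and 3 without Mdr2-/- replicate 6 or wild-type replicate 4.

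Genes listed for recruited and for resident macrophages moved in opposite directions. Of 23 genes of recruited macrophages 6 rose and 1 fell, and 12 rose without wild-type replicate 3. The 6 include Spp1, given above as a duct marker. The fall was lost without Mdr2-/- replicate 4, 5 or 6 or wild-type replicate 1, 2, 4 or 6. Cx3cr1, the fractalkine receptor of monocyte-derived cells, was at 3.77 to 13.5 CPM in wild type (median 6.48) and 14.3 to 36.8 CPM in Mdr2-/- (median 24.9), a rise of 1.73 ± 0.28 (edgeR adjusted p = 0.000308) without overlap. Trem2, a lipid receptor of scar-associated macrophages, rose by 1.62 ± 0.29, Ms4a7 by 1.82 ± 0.43 and the monocyte receptor Ccr2 by 1.16 ± 0.26 (edgeR adjusted p = 0.000633, 0.00687 and 0.00505). Of 14 genes listed for Kupffer cells, the resident macrophages, 6 fell and 1 rose, and the 6 include Cdh5 and Clec4g, which endothelium also carries. Cd163, the haemoglobin scavenger receptor, fell from 4.89 to 12.8 CPM to 1.05 to 5.27 CPM, by -2.06 ± 0.35 (edgeR adjusted p = 0.000376). Clec1b fell by -1.02 ± 0.19 and Timd4, a receptor for dying cells, by -0.65 ± 0.15, both without overlap (edgeR adjusted p = 0.00114 and 0.00666). C6, a complement component, was the member that rose (1.42 ± 0.25, edgeR adjusted p = 0.000643). Clec4f, the most specific Kupffer marker, was at 140 to 233 CPM and 90.5 to 275 CPM and was not among the genes that fell. Without Mdr2-/- replicate 1 the list had 10 genes that fell, and it had 3 when libraries were scaled by their totals, Timd4 no longer passing.

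Some chemokines and their receptors rose. In the CXCL and CX3CL list 5 of 16 rose, or 8 without wild-type replicate 3. Cxcl14 was at 2.29 to 6.62 CPM in wild type and 13.3 to 28.6 CPM in Mdr2-/-, a rise of 2.37 ± 0.36 (edgeR adjusted p = 0.000108). Cx3cl1, the ligand of Cx3cr1, was at 1.56 to 4.65 CPM and 5.71 to 10.6 CPM (1.39 ± 0.23, edgeR adjusted p = 0.000371). Both were separated between the genotypes. Tnf rose by 1.51 ± 0.28 and Tlr2, the sensor of bacterial lipoproteins, by 0.89 ± 0.17, without overlap (edgeR adjusted p = 0.00109 and 0.00122). In the CCL list 2 of 19 rose, or 9 without wild-type replicate 3. Of 31 interferon-stimulated genes 3 rose. Both counts are near the share of 7.13% among all genes tested. The interferon count was 1 without Mdr2-/- replicate 3, 4 or 6 or wild-type replicate 2, 4 or 6. It was 9 without wild-type replicate 3, 10 with voom and 11 with total library size or on log2(TPM + 1).

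Genes of the liver sinusoidal endothelium, the fenestrated lining of the liver's capillaries, were lower as a group. All 15 tested were below wild type and 12 fell, with a median of -0.66, and 9 to 12 fell when single libraries were left out. The scavenger receptor Stab2 was at 121 to 178 CPM in wild type (median 144) and 79.0 to 119 CPM in Mdr2-/- (median 92.5), a fall of -0.59 ± 0.12 (edgeR adjusted p = 0.00157). The nuclease gene Dnase1l3 was at 73.0 to 126 CPM and 37.9 to 60.8 CPM (-0.91 ± 0.16, edgeR adjusted p = 0.000505). Neither overlapped. Wnt2 and Bmp2, signals of this endothelium to hepatocytes that set zonation and iron balance, fell by -0.85 ± 0.20 and -1.02 ± 0.21 (edgeR adjusted p = 0.00633 and 0.00202). Oit3 fell by -0.87 ± 0.15 and the lectin Clec4g by -0.54 ± 0.12 (edgeR adjusted p = 0.000585 and 0.00387). With total library size 8 of the 15 still fell, Clec4g not among them. In livers without tumour 4 of the 15 fell and 1 rose, where 24.3% of all genes fell and 26.2% rose. In the list of vascular endothelium 4 rose and 3 fell of 17 (2 rose without Mdr2-/- replicate 6 or wild-type replicate 2 or 4), Ackr1, the chemokine receptor of venules, by -0.87 ± 0.22 (edgeR adjusted p = 0.00996).

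**Figure D4:**
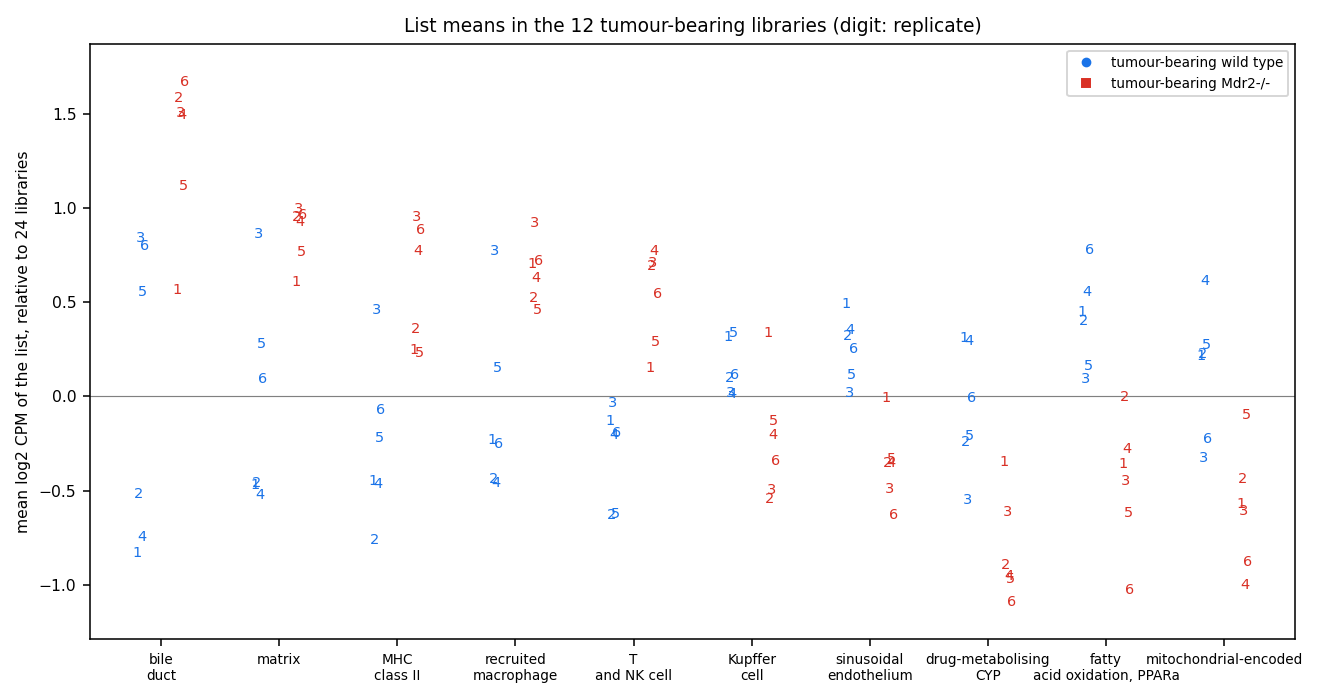
Mean log2 CPM of 10 gene lists in each of the 12 tumour-bearing libraries, relative to the mean of all 24, with the replicate's number as the symbol (blue wild type, red Mdr2-/-). Wild-type replicates 1, 2 and 4 are lowest for the bile duct list, at -0.83 to -0.51, and Mdr2-/- replicate 1, at 0.56, lies among the wild-type replicates.

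Hepatocyte functions were lower in a set of metabolic lists. Of 28 drug-metabolising cytochrome P450 genes 16 fell, with a median of -0.83. Cyp2b10, the classical target of the nuclear receptor CAR, fell from 23.8 to 81.8 CPM to 3.99 to 18.3 CPM, by -2.21 ± 0.37 (edgeR adjusted p = 0.000363), without overlap. Cyp2c29 fell from 846 to 1745 CPM to 357 to 933 CPM, by -1.54 ± 0.23 (edgeR adjusted p = 0.000103). For the fatty acid oxidation enzymes and targets of PPAR alpha, the receptor that drives fat burning in fasting, all 24 lay below wild type and 15 fell, with a median of -0.71. Cyp4a14, an omega-hydroxylase, was at 77.9 to 248 CPM in wild type (median 158) and 7.35 to 60.4 CPM in Mdr2-/- (median 15.4), a fall of -2.59 ± 0.40 (edgeR adjusted p = 0.000175). Cyp4a10 fell by -1.66 ± 0.35 and the thioesterase Acot2 by -1.12 ± 0.22 (edgeR adjusted p = 0.00302 and 0.00132). All 3 separated the genotypes. With total library size 13 of the P450 genes and 10 of the oxidation genes still fell.

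Lipid droplet genes fell in 7 of 15 tested, or 4 without Mdr2-/- replicate 1 and wild-type replicate 6 together. Cidea, which fuses droplets, went from 0.836 to 9.56 CPM to 0.405 to 1.49 CPM (-2.49 ± 0.48, edgeR adjusted p = 0.00192). Its relative Cidec went from 20.1 to 65.7 CPM to 5.12 to 28.7 CPM (-1.32 ± 0.34, edgeR adjusted p = 0.0123), and was at -0.84 (adjusted p = 0.0597) without Mdr2-/- replicate 1 and wild-type replicate 6 together. The coat protein Plin4 fell by -1.23 ± 0.29 (edgeR adjusted p = 0.00783). Scd1, the desaturase of fatty acid synthesis, was at 16963 to 32672 CPM in wild type and 4291 to 13178 CPM in Mdr2-/-, a fall of -1.39 ± 0.25 (edgeR adjusted p = 0.000705) with no overlap. Its relative Scd2, the form of other tissues and a member of the fetal list above, rose by 1.55 ± 0.25 (edgeR adjusted p = 0.000223). Of 24 cholesterol synthesis genes edgeR and DESeq2 called 0, while 3 were lower at an unadjusted p under 0.05, which 24.7% of all genes reached in either direction.

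Secreted products of hepatocytes were lower by smaller folds. Alb fell by -0.78 ± 0.17 and Apoa1 and Apoa2, the proteins of HDL, by -0.68 ± 0.18 and -0.97 ± 0.15 (edgeR adjusted p = 0.00450, 0.0150 and 0.000117). Of 21 secreted and lineage genes 6 fell, or 3 without Mdr2-/- replicate 6. Of 16 apolipoprotein genes 7 fell, but 2 to 4 without Mdr2-/- replicate 5 or 6 or wild-type replicate 1, 4 or 6, and 1 with total library size, where Apoa1 did not pass. Hamp2, a hepcidin paralogue, went from 6.13 to 161 CPM to 4.14 to 18.4 CPM (-2.54 ± 0.59, edgeR adjusted p = 0.00707), and the iron exporter Slc40a1 fell by -0.63 ± 0.16 (adjusted p = 0.0125).

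Sex-biased liver genes fell in 7 of 20 tested, 4 without Mdr2-/- replicate 6. The female-type sulfotransferases Sult3a1 and Sult2a1 fell by -3.32 ± 0.54 and -2.92 ± 0.69 (edgeR adjusted p = 0.000257 and 0.00760). Sult3a1 was at 82.6 to 1308 CPM in wild type and 22.4 to 115 CPM in Mdr2-/-, a wide spread within both genotypes. Xist and the Y-linked genes, given above, did not set any library apart.

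Mitochondrial-encoded genes fell in 10 of 13, with all 13 below wild type and a median of -0.72. The cytochrome oxidase subunit mt-Co1 was at 14393 to 30755 CPM in wild type and 9105 to 19307 CPM in Mdr2-/- (-0.81 ± 0.19, edgeR adjusted p = 0.00635). The class took 5.39 ± 1.13% of the counts in wild type and 3.78 ± 1.03% in Mdr2-/- (SD, n = 6), an exact 2-sided permutation p of 0.0325, or 0.0812 adjusted over 5 classes. The calls were 4 with total library size, and 4 to 6 without Mdr2-/- replicate 4 or 6 or wild-type replicate 2 or 4. The 10 most abundant genes of each library took 19.1 ± 1.05% of its counts in wild type and 16.2 ± 1.21% in Mdr2-/- (exact permutation p = 0.00433, adjusted 0.0216). Cytosolic ribosomal protein genes gave 0 calls among 36 with edgeR and 1 with DESeq2, and 4 at an unadjusted p under 0.05.

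The number of cell division genes called between the tumour-bearing genotypes depended on the method and on single libraries. Of 39 tested, 26 were above wild type, 1 passed as higher and 2 as lower, with a median of 0.47. Among all genes tested 7.13% passed as higher and 4.0% as lower, so neither count stands out from these shares. Top2a, the topoisomerase of dividing cells, rose by 0.86 ± 0.26 (edgeR adjusted p = 0.0290), at 0.67 to 0.86 and past the threshold no longer without Mdr2-/- replicate 3 or 6 or wild-type replicate 2, 4 or 6. Mcm10, of the replication fork, was at 28.3 to 45.9 CPM in wild type and 7.25 to 20.1 CPM in Mdr2-/-, a fall of -1.20 ± 0.26 (edgeR adjusted p = 0.00378). The genes that rose were 7 with total library size, 14 on log2(TPM + 1), 17 with voom, 5 without Mdr2-/- replicate 1, 14 without wild-type replicate 3, and 0 without Mdr2-/- replicate 3 or 6 or wild-type replicate 2 or 4. In livers without tumour the same list differed by a median of 1.73, with 33 genes higher and 2 lower in Mdr2-/-. There 26.2% of all genes tested were higher and 24.3% lower.

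The genotype difference without tumour was wider. There 8690 genes (50.5%) changed, with a median size over all genes of 0.52 against 0.24 in tumour-bearing livers. Of the 1917 genes that changed with tumour, 1213 (63.3%) also changed without, and these make 13.96% of the 8690. The sign was the same for 1129 and opposite for 84. The difference of the genotype effects itself passed for 4355 genes (25.3%), 2042 of them (11.9%) with a higher and 2313 (13.4%) with a lower difference in tumour-bearing livers. Among the 1917 it passed for 550 (28.7%). These counts describe the genotype difference in each setting, and the livers compared share no library.

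Several lists differed between the settings by that test. In the matrix list the genotype difference was lower with tumour for 16 of 40 genes, and Col1a1 differed by 3.56 without tumour against 0.69 with it (difference -2.87 ± 0.50, edgeR adjusted p = 0.000410). Recruited macrophage genes had a lower difference with tumour for 15 of 23, Cx3cr1 by -1.58 ± 0.40 (adjusted p = 0.00730), and cell division genes for 21 of 39. Lipid droplet genes had a lower difference for 9 of 15 and changed the sign of their median, from 0.55 without tumour to -0.77 with it. Cidec was at 0.60 and -1.32 (difference -1.92 ± 0.50, edgeR adjusted p = 0.00800). The T and NK cell list had a median of 0.18 without tumour and 0.95 with it. Only 1 of its 18 genes passed the test of the difference, where 25.3% of all genes did. That list is thus not among those that differed by the test.

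**Figure D5:**
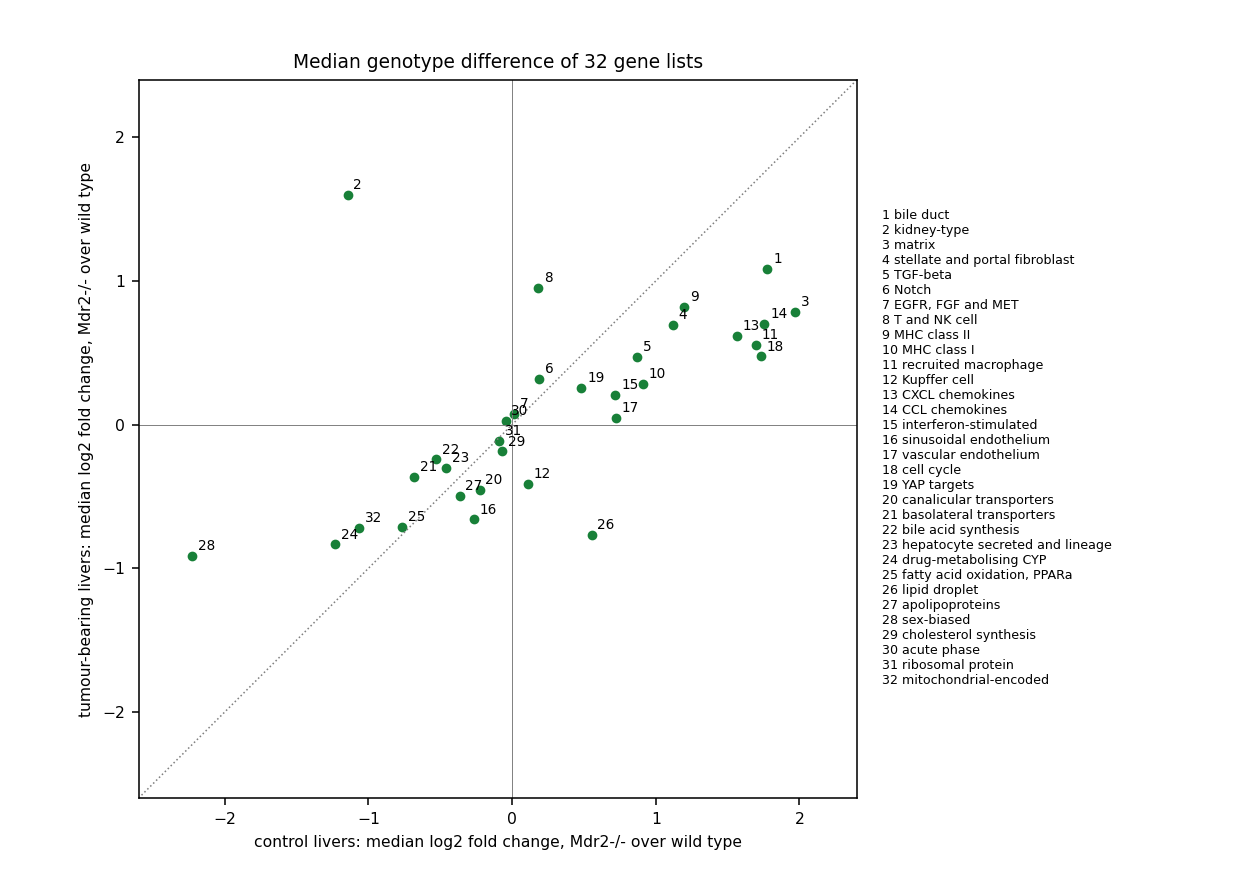
Median log2 fold change, Mdr2-/- over wild type, of 32 gene lists in livers without tumour (horizontal axis) and in tumour-bearing livers (vertical axis), numbered as in the key; the dotted line marks equal values. Kidney-type genes (2) and lipid droplet genes (26) lie on opposite sides of 0 on the 2 axes, and matrix genes (3) stand at 1.97 and 0.79.

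Among the genes with the largest differences between the settings, several stood apart in wild-type livers without tumour. Tinag, tubulointerstitial nephritis antigen, was at 0.0909 to 0.493 CPM in wild-type livers without tumour and at 4.26 to 13.8 CPM in the other 3 groups, so that its genotype difference was 4.93 ± 0.27 without tumour and 0.09 ± 0.20 with it (difference -4.84 ± 0.34, edgeR adjusted p = 7.85e-10). The protease inhibitor Slpi (-4.49 ± 0.36), the cornified envelope gene Sprr1a (-4.61 ± 0.60) and the sphingomyelinase Smpd3 (-4.30 ± 0.43) were likewise lowest in every wild-type library without tumour (edgeR adjusted p = 9.39e-09, 1.36e-05 and 6.55e-07). In the other direction Cyp3a44, a female-type P450, was at 45.5 to 1271 CPM in wild-type livers without tumour and at 2.97 to 55.0 CPM in the other groups (difference 6.46 ± 1.02, edgeR adjusted p = 0.000200). Cyp3a16 (6.28), Cyp3a41b (6.14), Cyp3a41a (5.95), Cyp3a63-ps (5.82) and Mup16 (5.51) followed, and Cyp4a12a (-4.40) and Ang5 (-4.62) were among the largest negative differences. Cyp3a41a and Cyp3a41b are near-identical copies, and their counts may be split between them.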

How the data were processed

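Bulk RNA sequencing of liver tissue gave 1 library per sample, 6 in each of 4 groups defined by the treatment label. Per the labels' protocols, total RNA was extracted, treated with DNase, depleted of ribosomal RNA and sequenced as pairs on a NovaSeq; whether the kit marks strand is not stated. The authors deposited a table of raw read counts per gene and a table of TPM per gene. The submitters' processing notes name genome build mm39 and DESeq2, while for the aligner and the counter the entry is: not given in the sources used here.

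Of 49315 genes, 17216 passed filterByExpr (minimum count 10), and 174 without a symbol held 0.0112 to 0.0178% of the counts in the tumour-bearing libraries. The counts were fitted with edgeR 4.0.16 (R 4.3.3; TMM, robust quasi-likelihood test, 1 mean per group, all 24 libraries), with Benjamini-Hochberg adjustment over all genes and a threshold of 0.05. SEs are the fold divided by the root of the F statistic. The same contrast in livers without tumour and the difference of both contrasts came from the same fit. Shares of counts were compared by exact 2-sided permutation tests. On simulated data, the test recovered 67 of 100 genes with a simulated 2-fold change and 98 of 100 with a 4-fold one among 16564 genes, with 10 false calls. No pair of replicates agreed within sampling noise.

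The gene lists and the members named were chosen with earlier results of these data known. The rule names Abcb4, Akt1 and Yap1; the 12 largest rises and 12 largest falls among genes past the threshold, at 5 CPM or more in the higher group, with the 12 libraries separated and without predicted genes; the 4 largest called members of each list at 1 CPM or more, with the 2 largest in the minority direction; and the 6 largest differences between settings in each direction. The text draws on 111 of the 225 genes the rule names, chosen after their values and their stability were seen: without any 1 of the 12 libraries, 100 of 108 changed genes of the text kept the call, against 125 of 179 changed genes of the rule and 972 of all 1917. With title numbers of at least 2000 it was 92 of 108 against 135 of 179, and with those below 2500 in addition 85 against 118. Abcb1a and Crot, the neighbours of Abcb1b and Abcb4, were named after their values were seen.

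Alternatives were other scalings, filters, DESeq2 1.42.0, limma 3.58.1 on log2(TPM + 1), log2(TPM + 0.1) and with voom, the 12 libraries alone, covariates, removed gene classes and each library left out. The fit restricted to title numbers of at least 2000 and below 2500 was added after seeing the data. Promoters are from RefSeq, GRCm38.p6.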

Additional observations from a re-analysis of the deposited data

Results flagged for a closer look

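In 13 of the 244 groups examined (122 genes in both tumour-bearing groups) the highest or lowest of the 6 libraries lay further from its neighbour than Dixon's critical value for 6 values allows, as a share of the group's range. The critical value is set to flag about 1 in 20 groups of independent, normally distributed values. The groups here are CPM values of genes that vary together, so that rate cannot tell whether the 13 are more than chance. All 13 lay in Mdr2-/- replicate 1 or 3 or in wild-type replicate 3 or 6. In Mdr2-/- replicate 1 this was the case for Abcb4 59.3 CPM, Scd2 42.5 CPM, Tgfb3 5.19 CPM and Smpd3 10.1 CPM. In wild-type replicate 6 this was the case for Abcc3 661 CPM and Wnt2 3.42 CPM. In Mdr2-/- replicate 3 this was the case for Igf2 202 CPM, Afp 564 CPM and Mcm10 7.25 CPM. In wild-type replicate 3 this was the case for Loxl1 6.25 CPM, H2-Aa 252 CPM, H2-Q7 15.97 CPM and Tnf 1.56 CPM. 

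The genotype effect differed between tumour-bearing livers and livers without tumour by the test of the difference itself (edgeR adjusted p under 0.05) for 43 of these 122 genes. Of the 43, 12 were named for the size of this difference, and the rest are 31 of 110 genes (28.2%), where 25.3% of all genes tested passed. Differences are log2 values, the effect with tumour minus that without. Positive differences were found for Lrrn1 3.36, Ugt8a 3.28, Cyp4a14 1.95, Cdh16 4.31, Lrp2 3.21, Slc34a2 2.50, Afp 4.30, Scd2 1.68, Itgb8 1.19, Thy1 0.91, Sult3a1 3.19, Cyp3a44 6.46, Cyp3a16 6.28, Cyp3a41b 6.14, Cyp3a41a 5.95, Cyp3a63-ps 5.82 and Mup16 5.51. Negative differences were found for Cib3 -2.24, Cyp2b13 -1.61, Aqp1 -0.48, Mmp2 -0.92, Pdgfrb -1.16, Col1a1 -2.87, Ms4a7 -1.99, Cx3cr1 -1.58, Trem2 -1.40, Timd4 -1.04, C6 -1.91, Cxcl14 -1.92, Ccr2 -1.44, Tlr2 -1.69, Acot2 -0.91, Cidec -1.92, Plin4 -1.20, Dnase1l3 -0.72, Ackr1 -1.19, Top2a -1.13, Ang5 -4.62, Tinag -4.84, Sprr1a -4.61, Slpi -4.49, Cyp4a12a -4.40 and Smpd3 -4.30.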

How the results depend on the processing

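Beside the 1917 genes changed in tumour-bearing livers, 2927 changed with total library size, 3306 with limma on log2(TPM + 1), 3069 on log2(TPM + 0.1), 4120 with voom and 113 with the bile duct mean as a covariate. Of changes of at least 2-fold, 890 in all, 1356 were found with total library size, 570 with the stricter filter, 525 with log2(TPM + 1), 1463 with voom and 102 with the covariate. The share of higher genes went from 64.1 to 91.2% with total library size, 92.3% on both TPM scales and 71.2% with upper-quartile factors. In livers without tumour 1027 genes changed with the covariate, against 8690. The difference between settings passed for 2682 genes with the nuclear non-coding share as a covariate and 2417 with title numbers of at least 2000 and below 2500, against 4355. The remaining planned settings kept these counts within 1.5 times, apart from fits without a library.

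Without single libraries, the genes changed ranged from 1116 (without Mdr2-/- replicate 6) to 2751 (without wild-type replicate 3), those of at least 2-fold from 618 to 1366, those without tumour from 8610 to 9265 and the differences between settings from 3554 to 4715. The mitochondrial share differed by -1.998 to -1.25 percentage points, with an adjusted exact permutation p of 0.0216 without Mdr2-/- replicate 5, the erythroid share by -0.00733 to 0.0188, the nuclear non-coding share by 0.174 to 1.13, the ribosomal share by 0.0280 to 0.142 and that of the top 10 genes by -3.42 to -2.62. Without Mdr2-/- replicate 1 and wild-type replicate 6 together, the erythroid share differed by -0.0140 and the nuclear non-coding share by -0.168. As shares of summed TPM, the top 10 genes differed by -0.119 (adjusted exact permutation p = 0.955). The causes were not tested.

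Yap1, at -0.03, was at 0.0398 with upper-quartile factors, 0.23 with total library size, 0.0104 with the stricter filter, 0.25 and 0.27 on the TPM scales, 0.14 with voom, 0.0370 with title numbers of at least 2000, 0.14 with the nuclear non-coding share, 0.18 without Mdr2-/- replicate 1 and wild-type replicate 6 together and 0.18 with title numbers of at least 2000 and below 2500. With the bile duct covariate Akt1 was at -0.93, Spp1 at -0.0133, Krt19 at -0.35 and Col1a1 at -0.35. Without single libraries Yap1 ranged from -0.0901 to 0.12 and Akt1 from -0.0503 to 0.26. No paired analysis was possible because the labels carry no replicate numbers shared between groups. At 22.7 to 34.2 counts per CPM, genes under about 1 CPM are limited by counting error.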
